A study of Drosophila melanogaster with 4 samples.

Results

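The dpr, DIP and beat genes encode immunoglobulin-superfamily proteins of the neuronal cell surface, and 46 of them were examined for Osa-GFP peaks in the wing imaginal disc. They were the protein-coding genes of a Release 6 (dm6) gene table whose symbol is dpr with a number or starts with DIP- or beat-, 46 of 13922 protein-coding genes on the 6 chromosome arms. There were 21 dpr, 11 DIP and 14 beat genes. Anti-GFP CUT&RUN (a nuclease tethered to the antibody releases the DNA beneath it) was run on Drosophila melanogaster wing discs from female wandering third-instar larvae, raised at 25 °C, with 20 to 22 discs per replicate. There were 2 libraries of genotype Osa-GFP, in which GFP is carried by Osa, a signature subunit of the BAP form of the SWI/SNF nucleosome remodeler. A further 2 libraries came from yw larvae, which have no GFP and give the background of antibody and nuclease. All 4 used the same rabbit anti-GFP antibody and the supernatant fraction. How the tagged allele was made is not given in the sources used here. Nor do the labels say whether replicates were separate biological samples, so differences between them may be technical. A wing disc is mostly epithelium with adult muscle precursors and few neurons, and peaks do not report expression.

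Dpr proteins and their partners, the DIPs (Dpr-interacting proteins), bind each other in selective pairs across the cell surface and take part in the matching of neurons with their targets. dpr1, the founding member, was named for a defective proboscis extension response to salt. The Beat proteins, named for beaten path, bind Sidestep proteins. Beat-Ia on motor axons and Sidestep on muscle form the best known pair, which steers motor axons away from their bundle.

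The libraries differed in depth. Values per library are given below in one order, Osa-GFP replicate 1, Osa-GFP replicate 2, yw replicate 1 and yw replicate 2. In that order 5820, 4987, 774 and 4535 peaks lay on the 6 arms. Background coverage, worked out from the folds, ran from 0.460 to 0.481 fragments per position in 3 libraries and was 0.120 in yw replicate 1, which was thus the shallow one. The weakest called peaks had 4 summit fragments (3 in yw replicate 1), where summit fragments are the overlapping fragments at a peak's highest point. A gene without a peak is therefore one where no site passed the authors' caller at this depth.

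Almost no dpr, DIP or beat gene held an Osa-GFP region that was found in both replicates. Each gene's window was its span with 5 kb on either side, and peaks of the 4 lists that overlapped by 1 bp or more formed a region. An Osa-GFP-specific region held peaks of both Osa-GFP libraries and of no yw library. Such regions were found at 2 of the 46 genes, beat-IIIc with 3 and DIP-alpha with 1, against 10.2% of all protein-coding genes. A shared region held peaks of both Osa-GFP libraries plus a yw peak, and 2 other genes had 1 each, DIP-iota and beat-Ib (11.4% of all protein-coding genes). Together 4 of 46 genes (8.70%) had a region of both Osa-GFP libraries, against 17.4% of all genes.

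The 46 genes are long, and long genes held regions more often. Their spans ran from 3.74 kb (dpr19) to 379 kb (DIP-lambda), with a median of 33.2 kb against 2.16 kb for all protein-coding genes, and 37 of the 46 lay in the longest of 10 bins of equal gene number. In that bin 49.3% of all 1393 genes and 3 of the 37 dpr, DIP and beat genes had a region of both Osa-GFP libraries. Summed over the bins, genes of like span gave an expectation of 20.0 genes with such a region and 14.4 with an Osa-GFP-specific one, so the observed 4 and 2 were 0.20 and 0.139 times the expectation. Among the 9 shorter members, 1 had a region. No test over genes was made, since members are not replicates. Without the shallow yw replicate 1 the count of genes with a specific region was again 2. It was 4 without yw replicate 2, and 11 and 7 without Osa-GFP replicate 1 and replicate 2, when no second Osa-GFP library had to hold the peak. The ratio to the expectation was then 0.138, 0.208, 0.521 and 0.315.

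**Figure D1:**
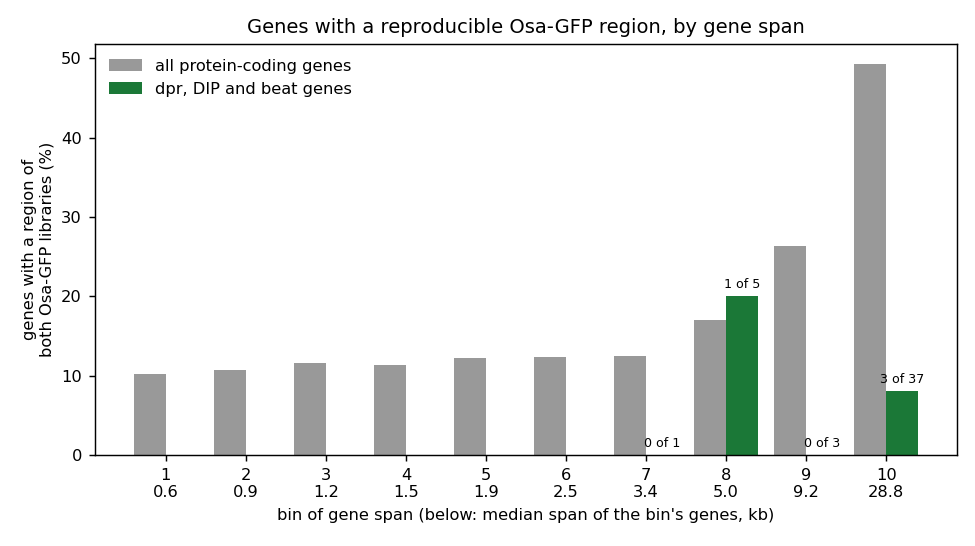
Share of genes (y axis, %) with a region of both Osa-GFP libraries in each of 10 bins of gene span (x axis, with each bin's median span in kb), for all protein-coding genes (grey) and for dpr, DIP and beat genes (green, with counts). In the longest bin 49.3% of all genes and 3 of 37 dpr, DIP and beat genes had one; bins 1 to 6 hold no member.

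The dpr genes held no region of both Osa-GFP libraries. Of the 21, 0 had an Osa-GFP-specific and 0 a shared region, where 5.77 and 5.78 were expected from genes of like span. Single-library Osa-GFP peaks lay at 5 of them: dpr2 had 2 and dpr10 had 1 in Osa-GFP replicate 2, and dpr4, dpr8 and dpr14 had 1 each in Osa-GFP replicate 1. The highest was at dpr2 on 2L at 10947957 to 10948142, with 10 summit fragments. A yw replicate 2 peak of 8 fragments overlapped it. At dpr10, which encodes a ligand of DIP-alpha, the one Osa-GFP peak had 5 summit fragments. The longest dpr gene, dpr6, another ligand of DIP-alpha, spans 165 kb on 3L and had 0, 0, 0 and 2 peaks in library order. Likewise dpr8 (140 kb, X) had 1, 0, 1 and 2, and dpr21 (125 kb, 2R) 0, 0, 0 and 2. No peak of any library was found at dpr11, dpr12, dpr15, dpr16, dpr17, dpr5, dpr7 or dpr20.

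Of the 11 DIP genes, DIP-alpha had the one Osa-GFP-specific region, where 3.72 genes with one were expected from span. A region of both Osa-GFP libraries was found at 2 of the 11 (5.10 expected). DIP-alpha (Dmel_CG32791, X at 3507245 to 3571649) encodes the receptor that binds Dpr6 and Dpr10 in motor neurons and elsewhere. The Osa-GFP-specific region, on X at 3545986 to 3546542, lay inside the gene, centred 25385 bp from the gene's nearer end. It overlapped the non-coding gene lncRNA:CR34335. Its peak had 14 summit fragments in Osa-GFP replicate 1 and 10 in replicate 2, with caller's folds of 10.2 and 7.53, and no yw peak was called there. By the worse of the 2 within-list ranks of fold (1245 and 1620) it was number 426 of 1765 specific regions. The gene was also the member with most control peaks: 1 in yw replicate 1, with 3 summit fragments, and 5 in yw replicate 2, with 4 to 10. None of these overlapped the Osa-GFP peaks.

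At the other DIP genes the Osa-GFP lists held little. The shared region counted for DIP-iota (2L at 6612410 to 6612859) lay 4274 bp outside the gene, within the neighbouring gene CG11050. Its summit fragments were 7 in each Osa-GFP library and 9 in yw replicate 2, so the control was not lower. DIP-gamma, the receptor of Dpr11, had 1 peak, in Osa-GFP replicate 2, 60 bp outside its span, with 6 summit fragments. The longest member of all, DIP-lambda, spans 379 kb on 2R and had 1 peak, of yw replicate 2, with 4 summit fragments. DIP-beta, DIP-delta, DIP-eta and DIP-theta had no peak in any library, while DIP-epsilon, DIP-kappa and DIP-zeta had yw peaks only.

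Of the 14 beat genes, beat-IIIc alone had Osa-GFP-specific regions, where 4.87 genes with one were expected from span. A region of both Osa-GFP libraries was found at 2 of the 14 (6.67 expected). Among them beat-IIIc stood out with 4 peaks in each Osa-GFP library. In yw it had 0 peaks in replicate 1 and 1 in replicate 2, a peak of 4 summit fragments 579 bp outside the span. beat-IIIc (Dmel_CG15138) lies on 2L at 17187637 to 17260734. It is one of 3 beat-III genes along this stretch of 2L. Its strongest specific region ran from 17243055 to 17243953 inside the gene, centred 17230 bp from the nearer end. The summit fragments there were 20 and 14 in Osa-GFP replicates 1 and 2, with folds of 14.3 and 10.3. Its ranks of 674 and 892 were the best of any Osa-GFP peak at the 46 genes, and it was number 147 of the 1765 specific regions.

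The other 2 specific regions of beat-IIIc were weaker. One, from 17217169 to 17217376, had 8 and 7 summit fragments. The other, from 17244463 to 17245068, had 6 and 8 and began 509 bp beyond the strongest region. Its peaks in the 2 libraries met over less than 50% of the shorter one, so under that stricter overlap it was no longer a region of both libraries, and 3 specific regions were left at the 46 genes. The gene also had 1 further peak in each Osa-GFP library that the other did not hold, with 7 summit fragments in replicate 1 and 8 in replicate 2. All 3 specific regions lay over 15 kb from both ends of the gene, as did that of DIP-alpha from the ends of its own. Distances to the ends of other genes were not measured.

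**Figure D2:**
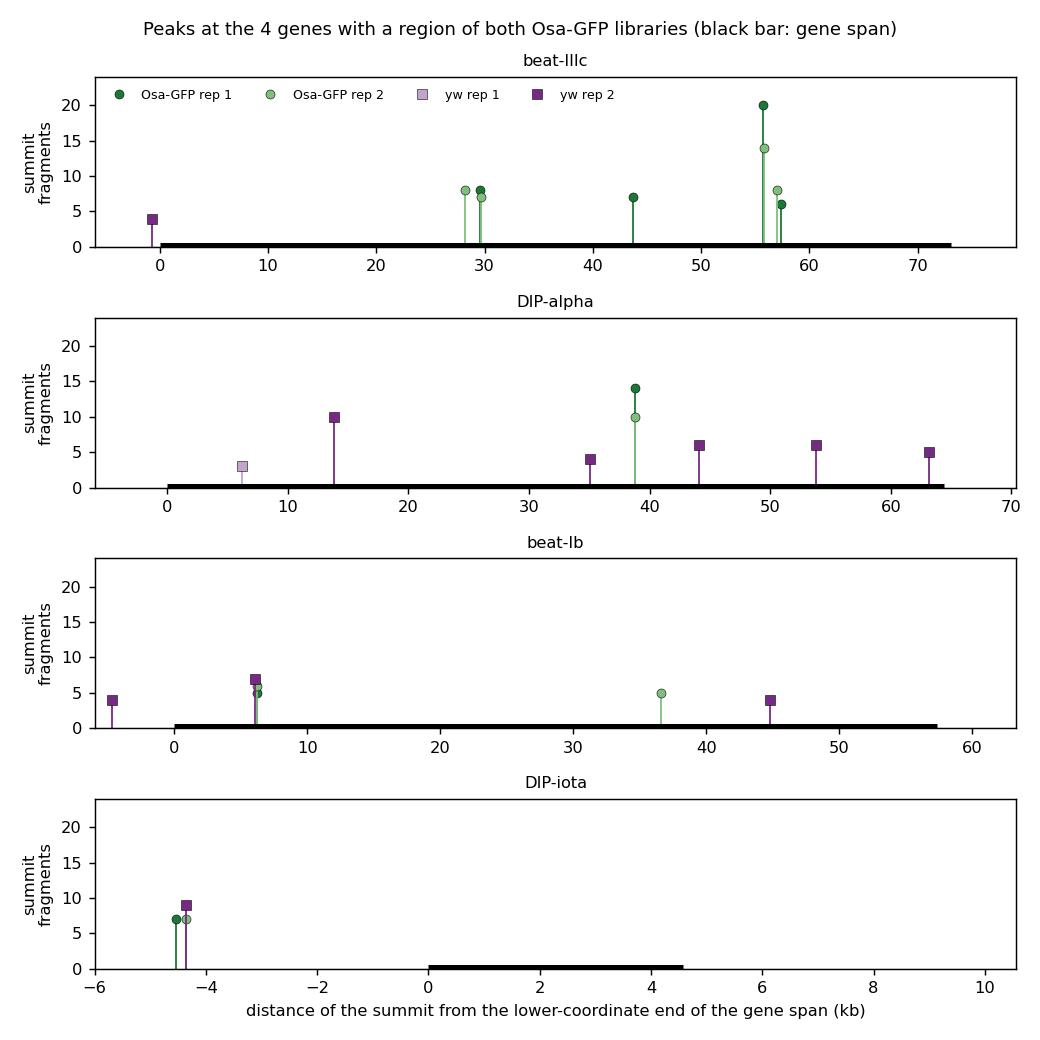
Summit fragments (y axis) of every peak at the 4 genes with a region of both Osa-GFP libraries, plotted by the summit's distance from the lower-coordinate end of the gene span in kb (x axis); the black bar is the gene span, circles are Osa-GFP and squares yw libraries. At beat-IIIc the Osa-GFP pair reaches 20 and 14 fragments, at DIP-alpha 14 and 10, and at beat-Ib and DIP-iota the yw replicate 2 peak is the highest of those at the shared region.

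The other beat-III genes did not share the pattern of beat-IIIc. beat-IIIa had 2, 0, 0 and 1 peaks and beat-IIIb 0, 1, 0 and 0 in library order, and neither had a region of both Osa-GFP libraries. Each beat-IIIa peak also overlapped the protein-coding gene CG34106. beat-Ib had a shared region inside the gene on 2L at 15911069 to 15911392, where summit fragments were 5 and 6 in the Osa-GFP pair and 7 in yw replicate 2. At beat-Ia, the Sidestep receptor, Osa-GFP replicate 1 had 1 peak of 5 summit fragments outside the span, overlapping BicC and CG45084, and yw replicate 1 had 1 of 3. A peak of either Osa-GFP library lay at 9 of the 14 beat genes (9.62 expected from genes of like span), at 5 of the 21 dpr genes (12.5 expected) and at 3 of the 11 DIP genes (7.39 expected). Differences between the families were not tested. beat-IV, beat-VII and beat-Va had no peak in any library.

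**Figure D3:**
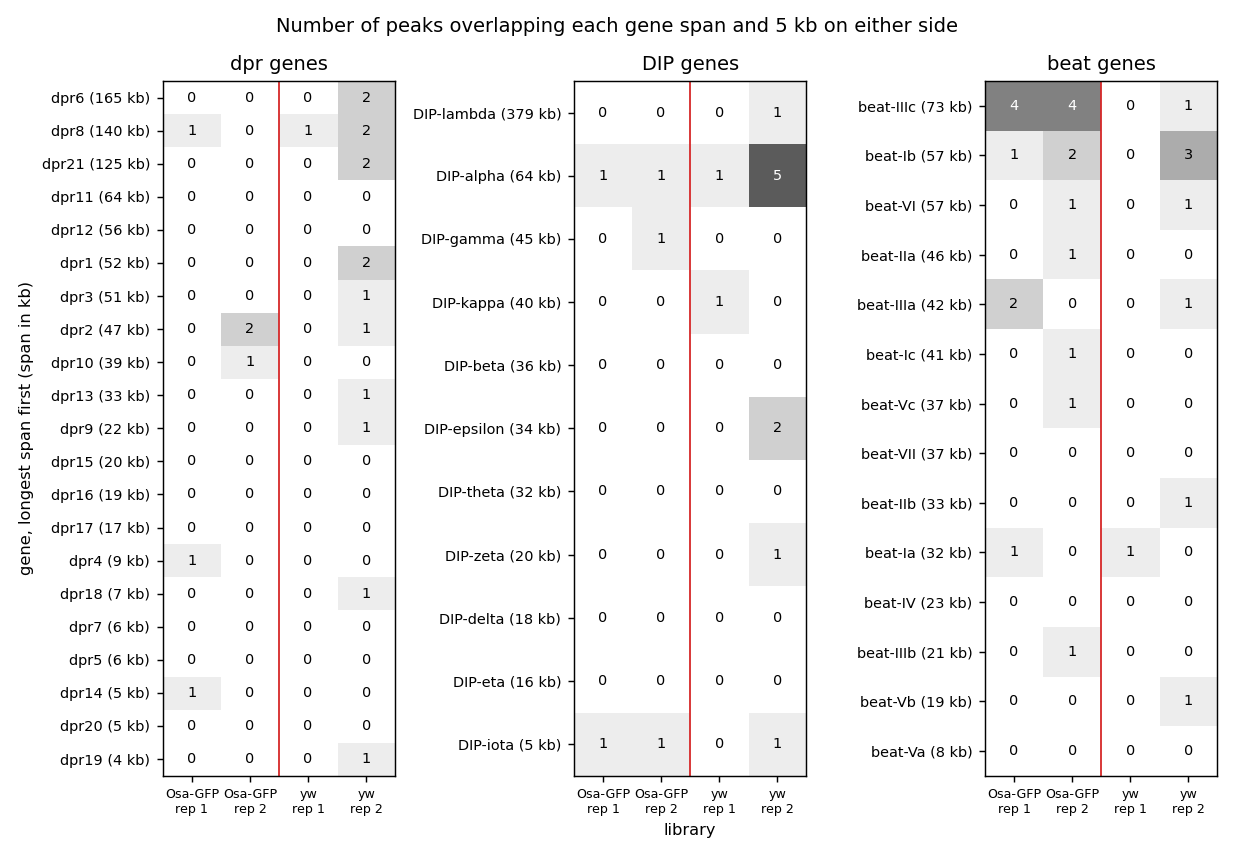
Number of peaks in each library (columns) at each dpr, DIP and beat gene (rows, longest span first, span in kb), counted over the span and 5 kb on either side; darker cells hold more peaks and the red line parts Osa-GFP from yw. beat-IIIc has 4 peaks in each Osa-GFP library, DIP-alpha has 5 in yw replicate 2, and 15 genes have none.

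Osa-GFP peaks held in 1 replicate only were weak. There were 17 regions of 1 Osa-GFP library with no yw peak, at 15 genes (21.6% of all protein-coding genes had one, and 23.0 of the 46 were expected to from genes of like span). Median summit fragments of these peaks were 5 in replicate 1 (7 regions) and 4.5 in replicate 2 (10 regions), near the lowest value of 4, and the highest were 8 in each. Summit fragments of such regions at other genes were not worked out, so weakness is not shown to be particular to these genes. The regions' median width was 170 bp here and 173 bp over all 3136 of the class. Of the 15 genes, 2 also had a region of both Osa-GFP libraries.

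Whether more of these genes had a control peak than an Osa-GFP peak depended on yw replicate 2 and on the weak peaks. With all peaks kept, a yw peak lay at 23 of the 46 genes (39.6% of all protein-coding genes, 31.3 expected from genes of like span) and an Osa-GFP peak at 17 (33.3% of all, 29.5 expected). Without yw replicate 2 only 4 genes had a yw peak, against the same 17. At −log10 q of 5 or more each group had a peak at 5 genes, and at 10 or more Osa-GFP had one at 2 and yw at 1. The whole lists were unequal there, with 3974, 3270, 208 and 1737 peaks in library order at 5 or more. At 10 or more they held 2075, 1619, 76 and 776. The share of all genes with a peak was not worked out at these thresholds. There were 33 yw-only regions at 21 genes (30.8% of all genes had one, 25.0 expected from genes of like span). Of the 33 regions, 0 held peaks of both yw libraries. Their summit fragments were 3 to 4 in yw replicate 1 and 4 to 20 in yw replicate 2, with a median of 5 in the latter. The strongest was on 3R at 12915703 to 12915827, 228 bp outside beat-Vb, with 20 summit fragments, as high as the strongest Osa-GFP peak at any of the 46 genes. The next control peaks, at DIP-alpha and near DIP-iota, had 10 and 9. No peak of any library lay at 15 genes (49.4% of all protein-coding genes, 9.51 expected from genes of like span).

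By library, 13, 17, 4 and 32 peaks lay at the 46 genes. They fell on 9 genes in Osa-GFP replicate 1 (27.1% of all protein-coding genes had a peak of that library), 12 in Osa-GFP replicate 2 (25.1%), 4 in yw replicate 1 (7.75%) and 21 in yw replicate 2 (37.6%), where genes of like span gave 25.9, 25.6, 9.43 and 30.0. Each library thus had fewer of these genes than expected from span. The mean numbers of peaks were 15 ± 2.83 for Osa-GFP and 18.0 ± 19.8 for yw (SD, n = 2 each), and the groups overlapped (two-sided exact permutation test, p = 1.00). The lists differ in length, so shares of each list were compared as well. They were 0.223% (95% Wilson interval 0.131% to 0.382%) and 0.341% (0.213% to 0.545%) in the Osa-GFP lists, and 0.517% (0.201% to 1.32%) and 0.706% (0.50% to 0.994%) in the yw lists. The intervals cover counting error only. Both Osa-GFP shares lay below both yw shares, a difference of means of -0.33 percentage points with a two-sided exact permutation p of 0.33, the smallest that 2 libraries against 2 allow, so the test cannot establish it. The separation was lost with stronger peaks. At −log10 q of 5 or more the shares were 0.151% and 0.214% in Osa-GFP and 0% and 0.288% in yw, and at 10 or more 0.0964% and 0.0618% against 0% and 0.129%.

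Relative to other long genes, peaks of all 4 lists were sparse here. In the longest span bin the windows of all genes held 50.5 and 42.8 peaks per Mb in the Osa-GFP pair, and those of the 37 dpr, DIP and beat genes 4.13 and 6.61. The same values were 6.13 and 1.65 in yw replicate 1 and 36.7 and 12.0 in yw replicate 2. The ratio of the 37 genes to the bin was thus 0.0818 and 0.155 in Osa-GFP and 0.269 and 0.327 in yw, and the groups did not overlap, with an exact permutation p of 0.33, again the smallest possible. At −log10 q of 5 or more the ratios were 0.0588 and 0.0873 in Osa-GFP and 0.116 in yw replicate 2, with 0 peaks of yw replicate 1 left at the 46 genes and thus a ratio of 0, so that the groups overlapped. The 37 genes were longer than the bin as a whole, with a median span of 38.7 kb against 28.8 kb.

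**Figure D4:**
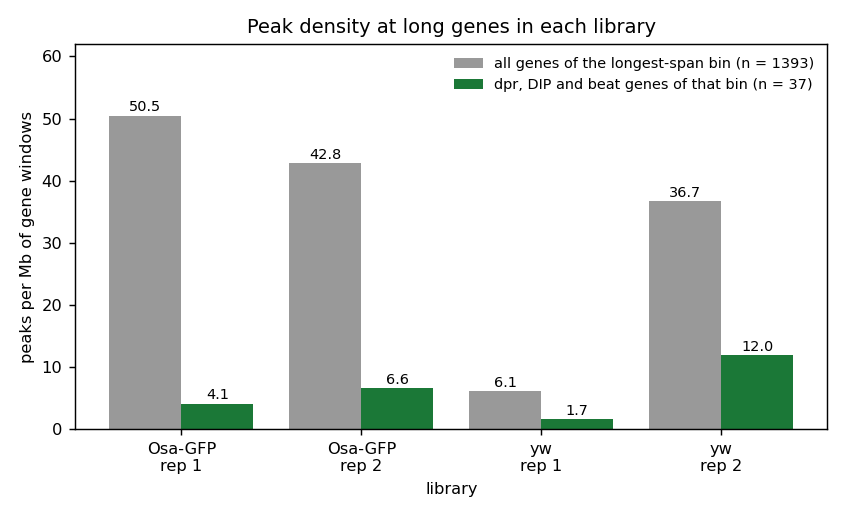
Peaks per Mb of gene windows (y axis) in each library (x axis) for all 1393 genes of the longest span bin (grey) and its 37 dpr, DIP and beat genes (green). Green bars stand at 4.13 and 6.61 in the Osa-GFP libraries and at 1.65 and 12.0 in the yw libraries, below grey in each.

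The peaks that did lie at these genes were also low for their lists. Median summit fragments were 6 at the 46 genes in each Osa-GFP library, where the whole lists had 8. In yw replicates 1 and 2 they were 3 and 5 against 4 and 6. With −log10 q required to reach 10, only 2, 1, 0 and 1 peaks were left at the 46 genes in library order. The 3 Osa-GFP peaks were the pair in the strongest beat-IIIc region and that of replicate 1 at DIP-alpha, and the yw peak was the one beside beat-Vb.

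Regions of both Osa-GFP libraries were also far from most of these genes. The median distance from a gene's span to the nearest such region was 58.0 kb for the 46 genes, 25.8 kb for all protein-coding genes and 6.31 kb for all genes of the longest span bin. Between 5 and 10 kb outside the span, just beyond the window, 0 of the 46 genes had their nearest region. The closest outside was at DIP-kappa, 10.6 kb away, and 14 genes had none within 100 kb. Other genes were not counted in these ranges. The nearest region was over 50 kb away for 26 of the 46 genes (56.5%). The same held for 28.5% of all protein-coding genes and 20.8% of the longest span bin. dpr21 was the farthest, at 936 kb.

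Genes whose products bind each other were set side by side. DIP-gamma and dpr11, DIP-delta and dpr12, and beat-Ia and its ligand gene side had 0 regions of both Osa-GFP libraries, and DIP-alpha had its 1 while its ligand genes dpr6 and dpr10 had 0. In side, which spans 62.4 kb on 3R, there were 1, 1, 0 and 1 peaks in library order, and the Osa-GFP peaks did not overlap. Of all 8 Sidestep-family genes 0 had a region of both Osa-GFP libraries (3.39 expected from genes of like span). A yw peak lay at 6 of the 8 (5.39 expected) and a peak of either Osa-GFP library at 4 (5.04 expected).

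Other lists were counted in the same way. They were written from general knowledge with earlier results of these data known, so they give no independent scale. Of 12 general neuronal genes, such as the RNA-binding protein gene elav and the synaptic genes brp and Syt1, 1 had a region of both Osa-GFP libraries, the transcription factor gene onecut, where 4.68 were expected from span. That region was shared with yw and lay 4882 bp outside onecut, whose window held 1, 0, 0 and 1 peaks in library order. In the same order 3, 0, 2 and 8 of the 12 genes had a peak, where genes of like span gave 6.29, 6.02, 2.17 and 7.46. Of 40 other surface and guidance genes of neuronal wiring 22 had one, where 18.3 were expected. Among them were the adhesion gene kirre with 9 specific and 3 shared regions, the teneurin genes Ten-m with 4 and 1 and Ten-a with 3 and 5, and sli, the Robo ligand gene, with 4 and 2. In that order these genes span 394, 115, 292 and 52.6 kb and had 12, 1, 11 and 0 yw-only regions. Other genes of this list had 0 regions of both Osa-GFP libraries, among them Nlg1, Nlg2, Nlg3, Nlg4, Nrx-1, klg, robo3, Dscam3, Dscam4, CadN2 and Lar. No peak of any library lay at 7 of the 40 genes (7.49 expected). All of the 8 genes of the wing disc epithelium had a region of both Osa-GFP libraries (3.49 expected). A specific region lay at 7 of the 8 (2.47 expected), and ap had a shared one only. The homeobox gene hth, which spans 132 kb, led them with 15 specific and 10 shared regions and had 6 yw-only ones. Of the 6 adult muscle precursor genes 2 had such a region (2.35 expected), twi and Mef2. Differences between lists were not tested.

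**Figure D5:**
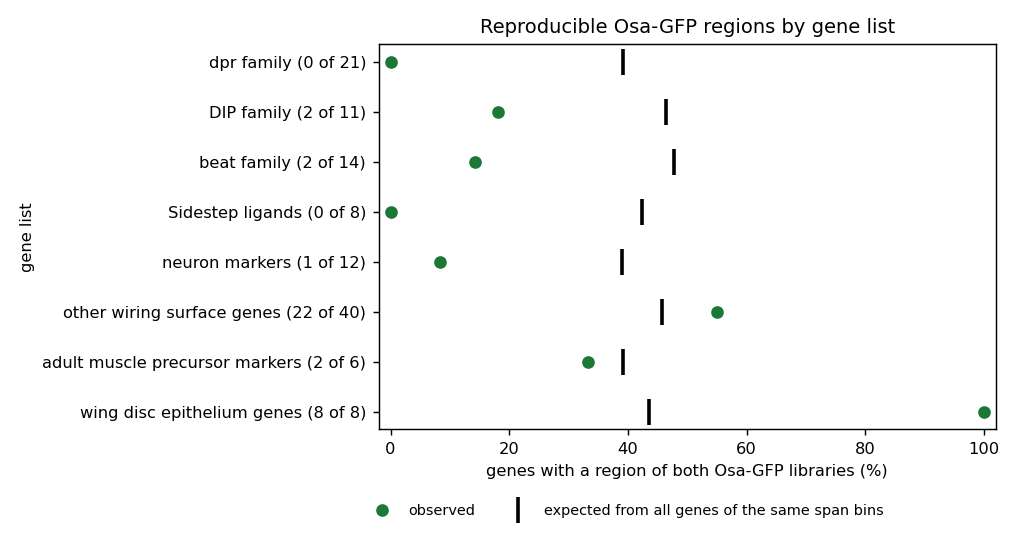
Share of genes with a region of both Osa-GFP libraries (x axis, %) in each gene list (y axis, with counts); circles are observed shares and vertical ticks the share expected from all genes of the same span bins. The dpr, DIP and beat families lie at 0 of 21, 2 of 11 and 2 of 14, and the wing disc epithelium genes at 8 of 8.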

How the data were processed

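Each library had 1 deposited narrowPeak list on build dm6. MACS2 2.1.2, Bowtie2 2.3.4.1, Picard 2.2.4, SAMtools 1.10 and deepTools 2.4.1 are named in the submitters' processing notes, without roles. Peak names carry 1 library each, so peaks were called per library. How peaks were thresholded is not given in the sources used here. In the lists, the deposited fold is the caller's own ratio, and its values are those of summit fragments plus 1 over background plus 1. The deposited p and q are −log10 values, and the deposited score was not used. The last deposited column is the summit's offset, a position.

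Folds in each list were whole multiples of 1 step (100% of peaks at a tolerance of 0.01), which gave summit fragments and the background per position. A Poisson p from them returned every deposited −log10 p under 100 to within 9.74e-06. Total reads are not known.

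Peaks on the 6 arms were merged across libraries at 1 bp of overlap. Gene spans, without strand, came from a RefSeq table of 17872 rows on the same assembly, so start sites, exons, introns and UTRs were not told apart. A region counted for every gene whose span plus 5 kb it met. No peak counted for 2 members, although 3 pairs of windows overlapped. The expectation sums, over members, the share of all protein-coding genes of the same span bin with such a region. Ranks are by fold within a list. Exact permutation tests ran over the 4 libraries. All members are accounted for, and per-library values were given for those with a region of both Osa-GFP libraries, the longest without one, and known partner pairs. Neighbouring members, single-library peaks and genes of other lists were named after their values were seen. Members and lists were chosen with earlier results of these data known. Planted regions were recovered at 200 of 200 genes in simulated data. No sequence was used. Python 3.11.15 with pandas 2.3.3 and SciPy 1.17.1 was used.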

Additional observations from a re-analysis of the deposited data

How the results depend on the processing

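The ratio of genes with an Osa-GFP-specific region to the span expectation stayed under 1 in every alternative run, from 0 to 0.521. Counts were small and moved with the peaks kept. At −log10 q of 10 or more the genes with a specific region, the specific regions, the genes with a region of both Osa-GFP libraries and the genes with a yw peak each numbered 1. With every list limited to its 774 strongest peaks by q the first 3 were 0, as was the ratio, where 4.60 genes were expected, and genes with a yw peak numbered 5. At −log10 q of 5 or more, genes with a yw peak also numbered 5. Removing a region only where both yw libraries held a peak gave 4 genes with a specific region.

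Leaving out each library in turn gave 2 to 11 genes with a specific region, 4 to 14 specific regions, 4 to 12 genes with a region of both Osa-GFP libraries (of the one left, where one was removed), 4 to 23 genes with a yw peak and ratios of 0.138 to 0.521. The highest counts of the first 3 came without Osa-GFP replicate 1, and the lowest count of genes with a yw peak without yw replicate 2.

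The difference of -3 peaks per library at the 46 genes (Osa-GFP minus yw) had no firm direction. It was 4 at −log10 q of 5 or more, 1 at 10 or more, and -17 to 11 when 1 library was left out, the extremes without yw replicate 1 and replicate 2. With the replicate number as a block it was -3 with an exact permutation p of 1.00; the labels do not say that equal numbers pair libraries. The cause of these changes was not tested. Leaving out the flank, a flank of 1 kb, the region's centre and an overlap of 50% changed no count they were run for by over 1.5 times. With 5 and 20 span bins the ratio was 0.189 and 0.128. A count was also made of only those specific regions that lay inside the member or overlapped no other protein-coding gene. All 4 specific regions lay inside their member, so that count could not differ from 2 genes and shows nothing further. Non-coding genes were not considered there. The counts of genes with an Osa-GFP peak at higher q or without a library were added after seeing the data.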

Other observations

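The genes with a region of both Osa-GFP libraries lay on 2 arms. On 2L 3 of 15 dpr, DIP and beat genes had one and on X 1 of 5, while 0 of 16 on 3R, 0 of 5 on 2R, 0 of 4 on 3L and the one on chromosome 4 (dpr7) had none. Over all protein-coding genes, without regard to span, the share per arm ran from 15.4% on 2L to 20.2% on X. Genes of like span were not counted by arm. Over all arms they gave an expectation of 20.0 of the 46 genes with such a region, against the 4 observed. Control peaks lay at 11 of the 15 genes on 2L, 4 of 5 on 2R, 3 of 5 on X, 4 of 16 on 3R and 1 of 4 on 3L, and not at dpr7. Over all arms 39.6% of protein-coding genes had a control peak. That share was not worked out by arm, so these counts show no contrast between arms. The arms were not compared by a test.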
